A study of Mus musculus with 4 samples.

Results

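The mitochondrial solute carriers are taken here as the proteins with an Slc25a symbol together with the uncoupling proteins Ucp1, Ucp2 and Ucp3. Their genes were taken by symbol from a table of 34535 transcripts: every gene whose symbol starts with Slc25a and a digit, and the 3 uncoupling protein genes. This gave 50 of the 24358 genes in the table, with 72 transcripts, and the FPKM (fragments mapped per kilobase, scaled to library size) of the transcripts of each gene were summed. The table compares CD301b macrophages, a subset of wound macrophages that carries the lectin CD301b, with immune cells negative for the macrophage surface protein F4/80. Both populations were sorted from the dermis of wound beds on day 5, in 7-week-old male C57/Bl6 mice with no allele or treatment named in the labels, and each is represented by 2 libraries. The labels do not say how many animals gave each library or whether animals were pooled.

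Mitochondria are enclosed by an inner membrane that most metabolites cannot cross unaided. The Slc25 carriers are small proteins of that membrane, built from a repeated pair of membrane-spanning helices, that exchange nucleotides, phosphate, acids of the citric acid cycle, amino acids, cofactors and iron between the cytosol and the matrix. A few members lie elsewhere, such as Slc25a17 in peroxisomes and Slc25a46 in the outer membrane. In macrophages, citrate, succinate and malate that leave mitochondria feed lipid synthesis and inflammatory signalling, and Ucp2 is the uncoupling protein best known from immune cells.

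The table gives 1 FPKM per transcript and population, so no value per library, no error and no depth can be given. The headers and sample titles tie each FPKM to a population, but do not say how its libraries entered it. Significance rests on the Cuffdiff p-value in the authors' deposited table, adjusted by the Benjamini-Hochberg method over all 16921 tested transcripts. The deposited p-values are unadjusted, so each adjusted p marked below as from that table is this adjustment of its p-value. A gene was called higher or lower in CD301b macrophages when at least 1 transcript had an adjusted p of at most 0.05, none passed in the other direction, and the sum over its transcripts lay on the same side. The p-values may cover technical spread alone, since no label ties the libraries to different animals. The transcripts of the sorting markers did not both follow their labels. Adgre1, which encodes F4/80, was higher in CD301b macrophages (557 FPKM, against 151 FPKM in F4/80-negative cells), whereas Mgl2, which encodes CD301b, was lower there (49.2 FPKM against 103 FPKM in F4/80-negative cells). All 7 macrophage markers were higher in CD301b macrophages, with a summed level of 3387 FPKM in CD301b macrophages and 1060 FPKM in F4/80-negative cells. All 6 dendritic cell markers were lower, with sums of 60.4 FPKM in CD301b macrophages and 239 FPKM in F4/80-negative cells. All 4 mast cell markers were lower, with sums of 16.4 FPKM in CD301b macrophages and 47.3 FPKM in F4/80-negative cells, as were 3 of 5 neutrophil markers, with sums of 2175 FPKM in CD301b macrophages and 3918 FPKM in F4/80-negative cells. S100a8 was 938 FPKM in CD301b macrophages and 1725 FPKM in F4/80-negative cells. S100a9 was 1092 FPKM in CD301b macrophages and 2025 FPKM in F4/80-negative cells. Csf3r was 68.1 FPKM in CD301b macrophages and 71.3 FPKM in F4/80-negative cells, called lower from 1 of its 3 transcripts. Cxcr2 was 27.3 FPKM in CD301b macrophages and 25.7 FPKM in F4/80-negative cells. Neither Cxcr2 nor Retnlg was past the threshold. Of 2 tested T cell markers 1 was higher, with sums of 4.88 FPKM in CD301b macrophages and 1.95 FPKM in F4/80-negative cells. The higher marker was Cd28 (3.78 FPKM in CD301b macrophages and 0.924 FPKM in F4/80-negative cells). Cd3d was 0.697 FPKM in CD301b macrophages and 0.615 FPKM in F4/80-negative cells and was not past the threshold. Cd3e was 0.399 FPKM in CD301b macrophages and 0.415 FPKM in F4/80-negative cells and was not tested. Fibroblast markers summed to 2729 FPKM in CD301b macrophages and 3725 FPKM in F4/80-negative cells, with none of 4 past the threshold. The part of the other cell types in the carrier values was not tested. In bulk RNA, fewer cells of a type and less RNA per cell cannot be told apart.

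A few carriers differed between the populations. Ucp1, the dicarboxylate carrier Slc25a10 and the ornithine carrier Slc25a15 were higher in CD301b macrophages, and the iron carrier Slc25a28 was lower. Of the 50 members, 37 had a tested transcript. Of these, 3 rose in CD301b macrophages and 1 fell, which left 33 that did not pass. That is 10.8% of the tested members called in either direction, against 17.2% of all 13039 genes with a tested transcript, a difference that was not tested. At an adjusted p of at most 0.1 the order of the shares turned round, with 24.3% of tested members and 23.5% of all tested genes called. By direction, 8.11% of tested members were higher, against 11.0% of all tested genes, and 2.70% were lower, against 6.20%. The median log2 fold of the tested members, on the log2(FPKM + 1) scale, was 0.11, beside 0.05 over all tested genes. The 0.25 and 0.75 quantiles of that log2 fold were -0.15 and 0.34 for the members and -0.22 and 0.31 for all tested genes. At least a 1.5-fold difference in summed FPKM was seen in 7 of the 37 tested members, or 18.9%, and in 27.4% of all tested genes.

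The windows around the start sites of the 4 called genes are shown because only these carriers passed the threshold. Each holds 250 bases before and 50 bases after the annotated start, 5′ to 3′ on the gene's own strand, from RefSeq on GRCm38.p6. For Slc25a28 the start of the window used lies inside the RefSeq gene, whose 5′ end is at position 43675006, within the window. Capitals mark the letters of 2 motifs, chosen after the sequences were seen and searched on both strands: the TATA box, spelled TATANA with any base at N, and the GC box, spelled GGGCGG, so that the reverse complement of either also counts. The windows lie at chr8:83290098-83290397 on the plus strand for Ucp1, chr11:120491587-120491886 on the plus strand for Slc25a10, chr8:22398572-22398871 on the minus strand for Slc25a15 and chr19:43674832-43675131 on the minus strand for Slc25a28.
Ucp1: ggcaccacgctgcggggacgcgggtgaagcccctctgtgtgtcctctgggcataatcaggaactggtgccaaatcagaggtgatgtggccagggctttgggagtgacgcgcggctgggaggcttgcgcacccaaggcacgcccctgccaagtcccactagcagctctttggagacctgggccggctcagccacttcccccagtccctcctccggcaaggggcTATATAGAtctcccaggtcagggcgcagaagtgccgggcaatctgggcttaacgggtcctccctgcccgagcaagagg
Slc25a10: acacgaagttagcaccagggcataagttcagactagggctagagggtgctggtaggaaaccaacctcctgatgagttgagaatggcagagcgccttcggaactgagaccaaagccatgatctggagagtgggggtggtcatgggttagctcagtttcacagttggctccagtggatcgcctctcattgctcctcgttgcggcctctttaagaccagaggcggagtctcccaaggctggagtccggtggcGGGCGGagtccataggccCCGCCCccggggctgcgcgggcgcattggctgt
Slc25a15: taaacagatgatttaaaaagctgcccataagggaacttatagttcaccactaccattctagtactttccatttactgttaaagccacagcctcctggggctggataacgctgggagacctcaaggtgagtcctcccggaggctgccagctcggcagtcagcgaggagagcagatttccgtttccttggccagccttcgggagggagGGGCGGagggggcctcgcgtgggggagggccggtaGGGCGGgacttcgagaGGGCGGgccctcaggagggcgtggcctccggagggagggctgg
Slc25a28: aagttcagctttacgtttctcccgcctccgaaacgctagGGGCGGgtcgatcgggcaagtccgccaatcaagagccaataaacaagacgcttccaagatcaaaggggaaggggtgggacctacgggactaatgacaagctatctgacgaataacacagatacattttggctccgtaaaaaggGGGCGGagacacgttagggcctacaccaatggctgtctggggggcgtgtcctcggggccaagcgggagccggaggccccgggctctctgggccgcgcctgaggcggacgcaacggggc
The Ucp1 window held 2 overlapping matches to the TATA letters and no GC box. The windows of Slc25a10, Slc25a15 and Slc25a28 held 2, 3 and 2 GC boxes and no TATA match. Of 32851 promoter windows in the RefSeq table, 24.7% held the TATA letters and 35.7% the GC box. For 39 of the 50 members the table held at least 1 window, 49 windows in all, of which 5 held the TATA letters and 39 the GC box. The windows of the higher genes therefore do not share 1 motif among these letters, and the lower gene has the same GC box as Slc25a10 and Slc25a15. A match of letters is a description and does not show that a factor binds there.

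The level of the family was set by 4 abundant members. Ucp2, Slc25a5, Slc25a3 and Slc25a4 were the 4 highest carriers in each population, in that order, and together held 75.5% of all carrier FPKM in CD301b macrophages and 74.03% in F4/80-negative cells. All 50 carriers summed to 1755 FPKM in CD301b macrophages and 1582 FPKM in F4/80-negative cells, which was 0.319% of the FPKM of all transcripts in CD301b macrophages and 0.304% in F4/80-negative cells. Without Ucp2 the sums were 1065 FPKM in CD301b macrophages and 1091 FPKM in F4/80-negative cells. In both populations 34 members reached 1 FPKM, 19 reached 10 FPKM and 3 reached 100 FPKM. The 13 members without a tested transcript were all low, with a highest value of 0.378 FPKM, and Slc25a41 and Slc25a54 were listed at 0 in both populations.

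**Figure D1:**
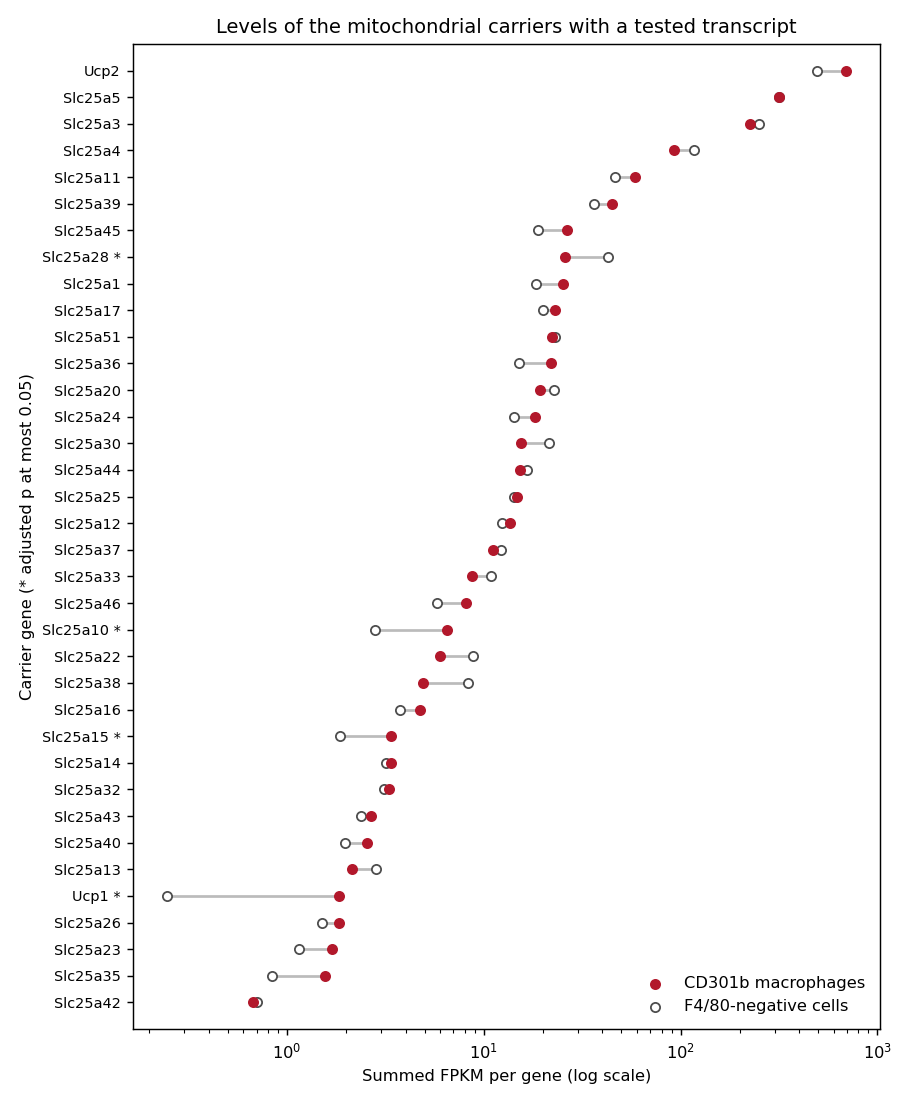
Summed FPKM (log scale) of 36 of the 37 carriers with a tested transcript, ordered by level in CD301b macrophages, with filled points for CD301b macrophages, open points for F4/80-negative cells and an asterisk at an adjusted p of at most 0.05. Levels run from 690 FPKM (Ucp2) to 0.675 FPKM (Slc25a42) in CD301b macrophages, and the widest gap is that of Ucp1 (1.84 FPKM in CD301b macrophages against 0.246 FPKM in F4/80-negative cells).

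Ucp1, the uncoupling protein that lets brown fat turn the proton gradient into heat, had the largest fold of the family at a low level. It was 1.84 FPKM in CD301b macrophages, against 0.246 FPKM in F4/80-negative cells, a 7.47-fold difference (adjusted p = 0.000999, from the authors' deposited table and the smallest value it allows). The level in F4/80-negative cells was below that of several members that were not tested, so Ucp1 was tested through its level in CD301b macrophages. Its call rested on 1 transcript, and none of the 50-base words in its transcripts occurs in another annotated gene. Of the 4 adipocyte markers 2 were tested, and neither was past the threshold. Adipoq, the fat cell hormone adiponectin, was 0.873 FPKM in CD301b macrophages and 0.297 FPKM in F4/80-negative cells, and Plin1, the lipid droplet coat protein, was 0.423 FPKM in CD301b macrophages and 0.0688 FPKM in F4/80-negative cells. Cidea, a lipid droplet protein of brown fat, was 1.36 FPKM in CD301b macrophages and 0.988 FPKM in F4/80-negative cells, and Lep, leptin, was 0.0272 FPKM in CD301b macrophages and listed at 0 in F4/80-negative cells. The adipocyte markers summed to 2.69 FPKM in CD301b macrophages and 1.35 FPKM in F4/80-negative cells, and their part in the Ucp1 difference was not tested.

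Ucp2, by contrast, was the most abundant carrier of both populations. It was 690.02 FPKM in CD301b macrophages, where it ranked 134 among all genes, and 490 FPKM in F4/80-negative cells, where it ranked 181. The ratio of 1.41 was not past the threshold (adjusted p = 0.0822, from the authors' deposited table). Ucp2 made up 39.3% of all carrier FPKM in CD301b macrophages and 31.0% in F4/80-negative cells. In the annotation 4.36% of its exon bases lie in another gene, Dnajb13, on the opposite strand. Ucp3, the skeletal muscle form, was 0.0739 FPKM in CD301b macrophages and 0.124 FPKM in F4/80-negative cells and was not tested. Of the relatives of the uncoupling proteins, Slc25a30 was 15.5 FPKM in CD301b macrophages and 21.3 FPKM in F4/80-negative cells, Slc25a14 was 3.36 FPKM in CD301b macrophages and 3.19 FPKM in F4/80-negative cells, and neither was past the threshold. Slc25a27 was at most 0.259 FPKM in either population.

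The carriers that serve ATP synthesis were abundant and none was past the threshold. Slc25a5, the ADP/ATP carrier of dividing and most other cells, was 318 FPKM in CD301b macrophages and 315 FPKM in F4/80-negative cells. Of its 50-base words, 33.8% also occur in other annotated genes, chiefly Gm5560, so part of its reads has no certain source. Slc25a4, the ADP/ATP carrier typical of heart and muscle, was 93.03 FPKM in CD301b macrophages and 116 FPKM in F4/80-negative cells, and it shared no such word. The ratio of Slc25a5 to Slc25a4 was thus 3.42 in CD301b macrophages and 2.71 in F4/80-negative cells. Slc25a31, the form known from testis, was at most 0.0934 FPKM. Slc25a3, which brings in the phosphate for ATP synthase, was 225 FPKM in CD301b macrophages and 249 FPKM in F4/80-negative cells.

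The ATP-Mg/phosphate carriers, which adjust the adenine nucleotide pool of the matrix in response to calcium, were led by Slc25a24 and Slc25a25. Slc25a24 was 18.3 FPKM in CD301b macrophages and 14.2 FPKM in F4/80-negative cells, and Slc25a25 was 14.7 FPKM in CD301b macrophages and 14.2 FPKM in F4/80-negative cells. Slc25a23 was 1.70 FPKM in CD301b macrophages and 1.15 FPKM in F4/80-negative cells. None of the 3 was past the threshold.

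Among carriers of citric acid cycle intermediates, Slc25a10 rose and the more abundant Slc25a11 and Slc25a1 did not pass the test. Slc25a10, which exchanges malate and succinate for phosphate, was 6.47 FPKM in CD301b macrophages and 2.80 FPKM in F4/80-negative cells, a 2.31-fold difference (adjusted p = 0.000999, from the authors' deposited table). In the annotation 6.60% of its exon bases lie in the antisense gene Gm11788, and the counting's strand setting is not given in the sources used. Slc25a11, the oxoglutarate/malate carrier of the malate-aspartate shuttle, was 58.7 FPKM in CD301b macrophages and 46.3 FPKM in F4/80-negative cells. Slc25a1, the citrate carrier that supplies cytosolic acetyl-CoA, was 25.2 FPKM in CD301b macrophages and 18.5 FPKM in F4/80-negative cells (adjusted p = 0.161, from the authors' deposited table). All 3 had a higher summed FPKM in CD301b macrophages, and Slc25a21, the oxodicarboxylate carrier, was at most 0.00726 FPKM. Acly, the enzyme that splits exported citrate, was 39.6 FPKM in CD301b macrophages and 34.0 FPKM in F4/80-negative cells and was not past the threshold.

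The aspartate/glutamate carriers did not pass the test. Slc25a12 was 13.7 FPKM in CD301b macrophages and 12.3 FPKM in F4/80-negative cells, and its relative Slc25a13, the form of liver, was 2.15 FPKM in CD301b macrophages and 2.83 FPKM in F4/80-negative cells. Got1, the cytosolic aspartate aminotransferase of the same shuttle, was lower in CD301b macrophages, at 82.6 FPKM against 139 FPKM in F4/80-negative cells (adjusted p = 0.00392, from the authors' deposited table). Of other enzymes of that shuttle, Got2 was 46.55 FPKM in CD301b macrophages and 36.9 FPKM in F4/80-negative cells. Mdh1 was 50.6 FPKM in CD301b macrophages and 52.4 FPKM in F4/80-negative cells. Mdh2 was 108 FPKM in CD301b macrophages and 128 FPKM in F4/80-negative cells. None of Got2, Mdh1 and Mdh2 was past the threshold. The glutamate carrier Slc25a22 was 6.004 FPKM in CD301b macrophages and 8.82 FPKM in F4/80-negative cells, and Slc25a18 was at most 0.378 FPKM.

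Of the amino acid carriers, Slc25a15 alone was past the threshold. Slc25a15 links the cytosolic and mitochondrial steps of the urea cycle by exchanging ornithine and citrulline. It was 3.39 FPKM in CD301b macrophages and 1.85 FPKM in F4/80-negative cells, a 1.83-fold difference (adjusted p = 0.00729, from the authors' deposited table). It overlapped no other annotated exon and shared no 50-base word with another gene. Oat, the mitochondrial ornithine aminotransferase, was 52.4 FPKM in CD301b macrophages and 47.1 FPKM in F4/80-negative cells and was not past the threshold. Ass1, which joins citrulline to aspartate, was 4.83 FPKM in CD301b macrophages and 15.6 FPKM in F4/80-negative cells and was lower (adjusted p = 0.00783, from the authors' deposited table). Asl, which acts after Ass1 in that cycle, was 20.4 FPKM in CD301b macrophages and 17.2 FPKM in F4/80-negative cells. It was not past the threshold. The other basic amino acid carriers, Slc25a2 and Slc25a29, were at most 0.364 FPKM in either population. Slc25a38, the glycine carrier that serves haem synthesis, was 4.90 FPKM in CD301b macrophages and 8.30 FPKM in F4/80-negative cells (adjusted p = 0.0638, from the authors' deposited table). Slc25a44, a carrier of branched-chain amino acids, was 15.2 FPKM in CD301b macrophages and 16.5 FPKM in F4/80-negative cells, and its 2 leading transcripts went opposite ways. The first was 7.45 FPKM in CD301b macrophages and 9.67 FPKM in F4/80-negative cells, the other was 6.59 FPKM in CD301b macrophages and 4.68 FPKM in F4/80-negative cells, and neither was past the threshold.

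The mitoferrins bring iron into the matrix for haem and iron-sulfur clusters, and the general form Slc25a28 was the only one of the 37 tested carriers that was called lower in CD301b macrophages. Slc25a28 was 25.7 FPKM in CD301b macrophages, against 42.7 FPKM in F4/80-negative cells, where it was 1.66-fold higher (adjusted p = 0.0139, from the authors' deposited table). It overlapped no other annotated exon and shared no 50-base word with another gene. Slc25a37, the form best known from erythroid cells, was 11.1 FPKM in CD301b macrophages and 12.3 FPKM in F4/80-negative cells and was not past the threshold. Slc25a28 made up 69.8% of the summed mitoferrin FPKM in CD301b macrophages and 77.7% in F4/80-negative cells. The erythroid markers summed to 599.8 FPKM in CD301b macrophages and 561 FPKM in F4/80-negative cells, and none of the 3 tested was past the threshold. The haemoglobin gene Hba-a1 was 477 FPKM in CD301b macrophages and 407 FPKM in F4/80-negative cells, and Hbb-b1 was 120 FPKM in CD301b macrophages and 153 FPKM in F4/80-negative cells. Fech, which inserts iron into haem, was 12.7 FPKM in CD301b macrophages and 8.79 FPKM in F4/80-negative cells and was not past the threshold.

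**Figure D2:**
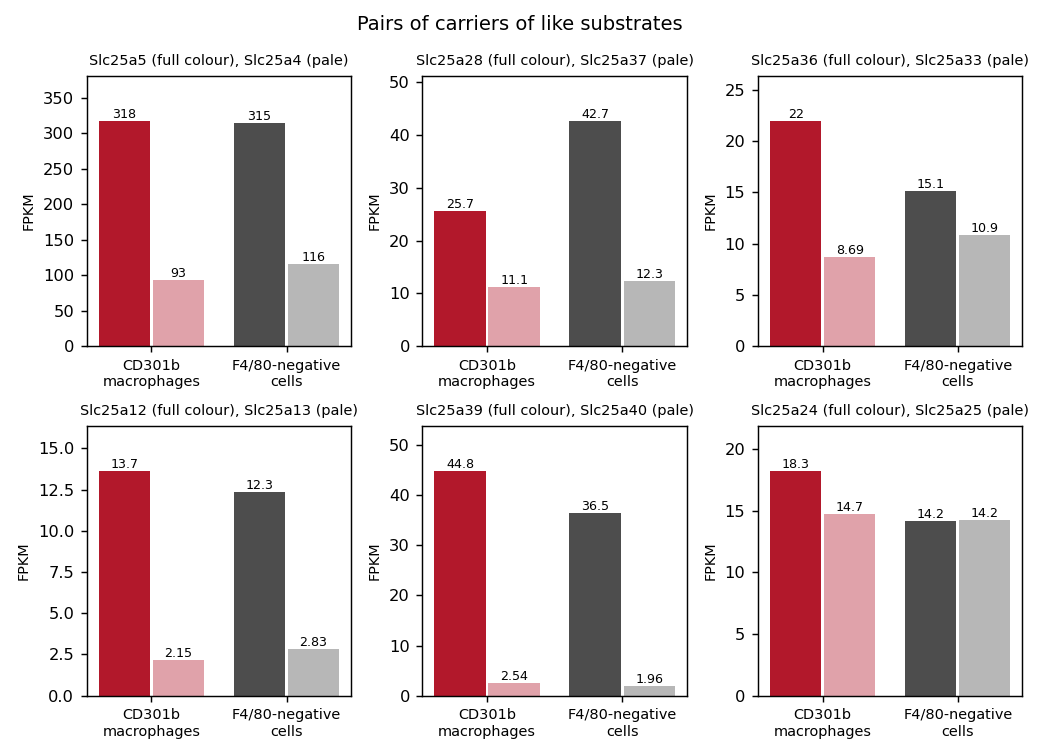
FPKM of 6 pairs of carriers of like substrates in CD301b macrophages (left bars of each panel) and F4/80-negative cells (right bars), with the first-named gene in full colour and the second pale. Slc25a28 is 25.7 FPKM in CD301b macrophages and 42.7 FPKM in F4/80-negative cells, beside Slc25a37 at 11.1 FPKM in CD301b macrophages and 12.3 FPKM in F4/80-negative cells.

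Carriers of cofactors and nucleotides gave no call. Slc25a36, a carrier of pyrimidine nucleotides, had the adjusted p closest to the threshold of any uncalled member, at 21.96 FPKM in CD301b macrophages and 15.1 FPKM in F4/80-negative cells (adjusted p = 0.0578, from the authors' deposited table). Its relative Slc25a33 was 8.69 FPKM in CD301b macrophages and 10.9 FPKM in F4/80-negative cells, so the ratio of Slc25a36 to Slc25a33 was 2.53 in CD301b macrophages and 1.39 in F4/80-negative cells. Slc25a39, which carries glutathione into mitochondria, was 44.8 FPKM in CD301b macrophages and 36.5 FPKM in F4/80-negative cells, and its close relative Slc25a40 was 2.54 FPKM in CD301b macrophages and 1.96 FPKM in F4/80-negative cells. Slc25a51, the NAD carrier, was 22.2 FPKM in CD301b macrophages and 23.1 FPKM in F4/80-negative cells, and the peroxisomal Slc25a17 was 22.9 FPKM in CD301b macrophages and 20.04 FPKM in F4/80-negative cells. The cofactor carriers Slc25a16, Slc25a26, Slc25a32 and Slc25a42 were between 0.675 and 4.75 FPKM in CD301b macrophages and between 0.708 and 3.77 FPKM in F4/80-negative cells.

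Slc25a20, which exchanges acylcarnitine for carnitine and so admits fatty acids for oxidation, was 19.2 FPKM in CD301b macrophages and 22.7 FPKM in F4/80-negative cells and was not past the threshold. Genes on either side of that step were counted beside it. Of 18 tested genes of fatty acid oxidation and carnitine handling, 4 were higher in CD301b macrophages and none was lower, with a median log2 fold of 0.26. These were Crat, carnitine acetyltransferase (18.4 FPKM in CD301b macrophages and 9.83 FPKM in F4/80-negative cells), and the oxidation enzymes Hadha (41.8 FPKM in CD301b macrophages and 27.4 FPKM in F4/80-negative cells), Hadh (21.9 FPKM in CD301b macrophages and 14.2 FPKM in F4/80-negative cells) and Decr1 (8.16 FPKM in CD301b macrophages and 5.19 FPKM in F4/80-negative cells). At 4 of 18 the count of higher genes was above the 11.0% of all tested genes, and no test was made of that difference. At an adjusted p of at most 0.01 the count was 1 of 18, Crat, with 1309 of all 13039 tested genes called in either direction. Cpt1a, which forms acylcarnitine at the outer membrane, was 52.1 FPKM in CD301b macrophages and 37.3 FPKM in F4/80-negative cells and was not past the threshold.

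The members with no substrate named here and the outer membrane member had few high values. Slc25a45 was 26.4 FPKM in CD301b macrophages and 18.8 FPKM in F4/80-negative cells (adjusted p = 0.0981, from the authors' deposited table). Slc25a46, an outer membrane protein tied to mitochondrial fission and lipid exchange, was 8.11 FPKM in CD301b macrophages and 5.76 FPKM in F4/80-negative cells (adjusted p = 0.0896, from the authors' deposited table). Slc25a43 was 2.66 FPKM in CD301b macrophages and 2.39 FPKM in F4/80-negative cells, and Slc25a35 was 1.57 FPKM in CD301b macrophages and 0.834 FPKM in F4/80-negative cells. Of the exon bases of Slc25a35, 31.3% lie in other genes, chiefly Rangrf on the opposite strand. Slc25a34, Slc25a47, Slc25a48 and Slc25a53 were at most 0.324 FPKM in either population. In all, 5 members had an adjusted p between 0.05 and 0.1: Slc25a36, Ucp2, Slc25a45 and Slc25a46 with higher values in CD301b macrophages, and Slc25a38 with a lower one.

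**Figure D3:**
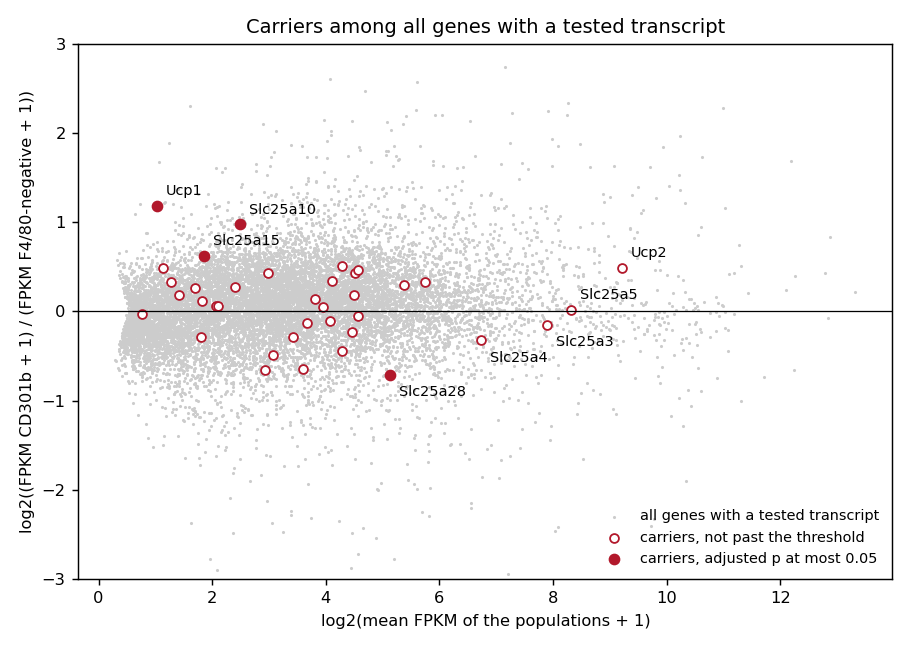
Difference between the populations, as log2((FPKM CD301b + 1)/(FPKM F4/80-negative + 1)), against mean level, as log2(mean FPKM + 1), with grey points for all genes with a tested transcript, open red points for carriers not past the threshold and filled red points for called carriers. Ucp1, Slc25a10 and Slc25a15 lie above 0 at low levels, Slc25a28 lies below 0, and 70 genes beyond the axis limit of 3 on the log2 scale are not shown.

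Genes of other mitochondrial functions were counted in the same way. In 11 related lists, 8 of 185 tested genes rose in CD301b macrophages and 2 fell, and their median log2 fold was 0.02. Of all tested genes 11.0% were higher and 6.20% lower, or 17.2% in either direction, and no list was tested against that share. None of 72 tested subunits of ATP synthase and of respiratory chain complexes I, III and IV, or proteins tied to them, was past the threshold. Of these, 25 had higher and 47 lower summed FPKM in CD301b macrophages. Their median log2 fold was -0.09, beside 0.05 over all tested genes. How all tested genes split by direction was not counted, so this split is not read as a result about these lists. None of 13 voltage dependent channel and calcium uniporter genes was past the threshold, nor any of 13 genes for carrier import and the carrier-like Mtch1 and Mtch2, nor any of 15 tested genes of mitochondrial biogenesis and fusion. Micu2, a calcium-sensing regulator of the uniporter, was 24.9 FPKM in CD301b macrophages and 17.1 FPKM in F4/80-negative cells. It has 1 tested transcript, and it was called higher when p-values multiplied by each gene's number of tested transcripts were adjusted over genes. It was also called higher when only transcripts at 1 FPKM or more were used. At an unadjusted Cuffdiff p under 0.05 were 2 of the oxidative phosphorylation genes, 5 of the channel genes, 1 of the import genes and 4 of the biogenesis and fusion genes, and no other tool could be run on these values. A gene's p here is the smallest among its transcripts. The share of all tested genes under that p was not counted, but 23.5% were called at an adjusted p of at most 0.1, a stricter cut. These counts are therefore not read as a result about the lists. Mtch1 was 65.7 FPKM in CD301b macrophages and 56.0 FPKM in F4/80-negative cells, and Mtch2 was 28.5 FPKM in CD301b macrophages and 24.1 FPKM in F4/80-negative cells.

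Pyruvate enters mitochondria through Mpc1 and Mpc2, which are no Slc25 proteins. Mpc1 was 75.4 FPKM in CD301b macrophages and 91.5 FPKM in F4/80-negative cells, Mpc2 was 31.4 FPKM in CD301b macrophages and 30.8 FPKM in F4/80-negative cells, and neither was past the threshold. Of the sideroflexins, another family of inner membrane transporters, Sfxn5 was higher at 7.35 FPKM in CD301b macrophages and 3.99 FPKM in F4/80-negative cells. Sfxn3 was higher at 31.6 FPKM in CD301b macrophages and 21.6 FPKM in F4/80-negative cells, with 1 of its 3 transcripts past the threshold. Sfxn1, Sfxn2 and Sfxn4 were not past the threshold. Of the 7 genes in the list of the pyruvate carrier and the sideroflexins, 2 were higher. Of all tested genes 11.0% were higher, and the difference was not tested. Sfxn3 lost its call under 4 alternatives, which were an adjusted p of at most 0.01, the multiplied p, the most abundant transcript alone and a 1.5-fold minimum. In the citric acid cycle 1 of 22 genes was called, beside the 17.2% of all tested genes. This was Ogdh, a subunit of the oxoglutarate dehydrogenase complex, which was higher at 27.7 FPKM in CD301b macrophages and 16.4 FPKM in F4/80-negative cells, with 1 of its 3 tested transcripts past the threshold. The 2 lower genes in the lists were Got1 and Ass1, given above.

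**Figure D4:**
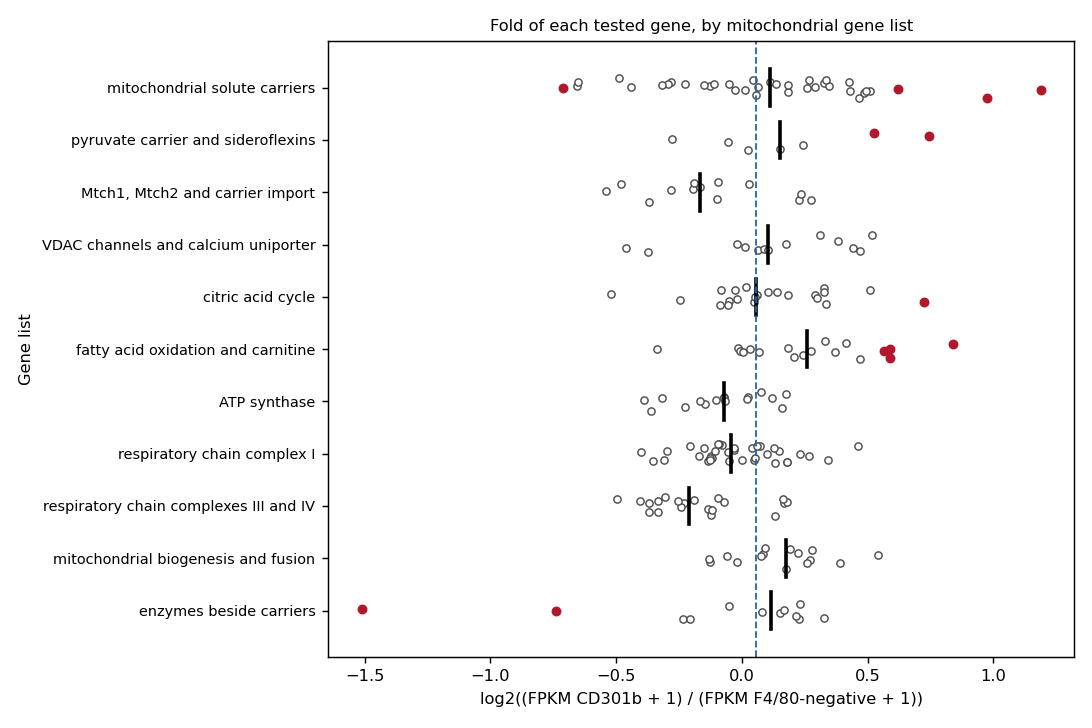
Difference of each tested gene, as log2((FPKM CD301b + 1)/(FPKM F4/80-negative + 1)), for the carriers (top) and 10 of the 11 lists of other mitochondrial genes, with filled points at an adjusted p of at most 0.05, a bar at each list's median and a dashed line at the median of all tested genes. The carriers' median is 0.11 beside 0.05 for all tested genes, and the respiratory chain and ATP synthase lists hold no filled point.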

How the data were processed

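RNA of 2 libraries of CD301b macrophages and 2 of F4/80-negative cells was sequenced from TruSeq mRNA libraries, per the labels' protocols. Per the submitters' processing notes, the tools were TopHat2 2.0.2 and Cuffdiff 2.0.2, with build mm9. The table's loci overlapped the RefSeq gene of GRCm38.p6 for 99.2% of the accessions found there (97.1% of all), so positions are given on GRCm38. The authors deposited 1 FPKM per transcript and population and an unadjusted p-value per transcript, per the file headers. How the libraries were combined, the strand setting and the depth are not stated in the sources used here. No test of differences was run here, since no value per library was used. The adjusted p is the Benjamini-Hochberg adjustment over tested transcripts, which matched all 2408 deposited calls, and for a gene the smallest among its transcripts. It is therefore no test of the sum in genes with several transcripts.

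A pseudocount of 1 FPKM was added before log2 folds, so changes of low genes are understated. Date-like symbols (25) were restored by accession. Shared 50-base words and overlaps came from GENCODE M21 annotation, and promoter windows from RefSeq. The adjustment and the call rule were tested on simulated p-values, which does not bear on the p-values from Cuffdiff. Full values were given for called members, the 10 highest in either population and the main substrate groups. Results of a few genes are not reported here. Other members named were chosen after their values were seen. The members and lists were chosen with earlier results of these data known. Python 3.11.15, pandas 2.3.3, numpy 2.4.6 and matplotlib 3.10.9 were used.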

Additional observations from a re-analysis of the deposited data

How the results depend on the processing

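No paired analysis was possible because the table holds no value per library, and leaving out each replicate was not run for the same reason. At an adjusted p of at most 0.01, 3 members were higher and 0 were lower (Slc25a28 was not called), and 4 genes of the related lists were higher and 2 lower, while 8.11% of tested members and 1309 of all 13039 tested genes were called. At 0.1, 7 members were higher and 2 lower, and 17 genes of the related lists were higher and 4 lower, while 24.3% of tested members and 23.5% of all tested genes were called. Multiplying each gene's p by its number of tested transcripts and adjusting over genes added Slc25a36 to the higher members. Slc25a36 has 1 tested transcript, so its p was not changed by the multiplication. Its call came from adjusting over 13039 genes in place of 16921 transcripts. Ucp1, Slc25a10 and Slc25a15 were higher under all 8 alternatives to the calls, and Slc25a28 was lower under the other 7. Most of these alternatives could hardly remove them. Each of the 4 has 1 transcript, so choosing among transcripts or multiplying by their number left its p unchanged. The 0.1 cut is looser, and scaling the populations changed no p-value. The minimum fold and minimum level were met by values given above. The 0.01 cut was the only stricter p threshold. The members' median log2 fold was 0.0011 over all 50, tested or not, 0.03 with the median genes of the populations set equal, and between 0.05 and 0.14 under the other alternatives. That scaling turned the median of all tested genes to -0.039 and the ratio of Slc25a5 to 0.933. The unknown depth limits low members such as Ucp1.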
